A study of Mus musculus with 14 samples.

Results

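The regions described here are long stretches of the mouse autosomes in which no H3K27me3 site was listed. A stretch was chosen by the positions in the site list, as a gap of at least 200000 bp from the end of one site to the start of the next on chromosomes 1 to 19. Of 144884 gaps between neighbouring autosomal sites, 2016 met this limit, or 1.39%, and they held 38.6% of the total gap length. Because the stretches were chosen by the distance between measured sites, their number, length and place are a description of the list and were not tested.

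The study followed chromatin after loss of ASH2L, a subunit of the COMPASS complexes that methylate lysine 4 of histone H3. The cells were immortalised mouse embryo fibroblasts (iMEF) of the line NG3, which is 1 clone. In every group, controls included, exon 4 of the endogenous Ash2l gene had been deleted by a tamoxifen-dependent Cre recombinase under the CAGG promoter, and human ASH2L with a degradation tag (FKBP-HA2-ASH2L) was supplied by a lentivirus. The tagged protein was removed with dTAG-13, a compound that recruits a ubiquitin ligase to the tag. The 12 H3K27me3 libraries comprised 2 replicates each of control cells and of cells exposed to dTAG-13 for 30 min, 2 h, 4 h, 8 h and 16 h, with 2 input libraries from control and 16 h cells. The deposited list combines the sites of all these samples and carries no value for any of them. The depth behind a site is unknown, groups and replicates could not be compared, and a stretch is a region without a site in the combined list of all 6 groups.

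H3K27me3, trimethylation of lysine 27 of histone H3, is set by Polycomb repressive complex 2 (PRC2). In most cell types PRC2 is found at CpG islands of silent developmental genes, such as the Hox clusters, from which the mark can spread over broad domains. Mammalian chromosomes also hold gene-poor, A and T rich regions and large clusters of tissue-restricted genes, among them olfactory and vomeronasal receptors, that are packed in heterochromatin of other kinds. A missing site says only that no enrichment passed the peak caller. Reads from sequence with further exact copies in the assembly cannot be assigned to 1 place, so such copies were counted too.

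Sequences from the stretches and their borders show the features that the values below describe. The first set gives 2 sites of 200 bp, the smallest width in the list, each of which stood alone between a pair of stretches. They parted pairs of great joint length and are written from the GRCm38.p6 plus strand with CpG dinucleotides in capitals.
chr16:81149618-81149817: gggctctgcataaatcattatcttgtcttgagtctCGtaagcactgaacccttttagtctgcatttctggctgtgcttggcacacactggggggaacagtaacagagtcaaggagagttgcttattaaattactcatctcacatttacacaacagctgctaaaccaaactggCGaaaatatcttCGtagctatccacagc
chr7:20997172-20997371: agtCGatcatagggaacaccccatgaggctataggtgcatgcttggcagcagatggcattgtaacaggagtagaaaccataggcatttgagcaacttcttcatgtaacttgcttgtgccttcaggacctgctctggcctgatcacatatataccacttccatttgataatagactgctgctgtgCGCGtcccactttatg
The chromosome 16 site parted stretches of 1972 kb and 1762 kb, had 43.5% GC and 3 CpGs, and held no base that the assembly marks as repeat by soft-masking. The chromosome 7 site lay between stretches of 959 kb and 2360 kb, and all 200 of its bases were soft-masked.

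The second set shows why sequence copies were counted. Each window has 75 bases, the read length of the study, and is the sampled window nearest to the middle of its stretch.
chr4:76591501-76591575: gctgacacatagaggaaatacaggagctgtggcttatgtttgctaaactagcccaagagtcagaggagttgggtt
chr7:22177001-22177075: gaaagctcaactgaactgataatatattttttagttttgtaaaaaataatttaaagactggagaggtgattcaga
The first window, from the longest stretch, occurred 1 time in the assembled chromosomes. The second, from the stretch with the most genes, occurred 8 times, so a 75-base read from it could not have been assigned to 1 place.

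The third set gives RefSeq promoters (GRCm38.p6, 250 bases before to 50 after the start site) of 6 genes whose start sites lay inside stretches, 5′ to 3′ on the gene's strand with CpG in capitals. Tusc1, Ccser1 and Foxd3 are shown as CpG-rich promoters, and they started 567, 335 and 33.7 kb from the nearest edge of their stretch. Only 0.792% of the 75-base windows of the Foxd3 stretch were unique once copies outside the chromosomes were counted, as described below. Col3a1 encodes a fibroblast collagen, Olfr1061 an olfactory receptor and Prl6a1 a member of the prolactin family, and these 3 are shown as CpG-poor promoters. Of the 3463 protein-coding genes with a start site in a stretch, 2519 had an entry in the RefSeq promoter table.
Tusc1, chr4:93335462-93335761, minus strand: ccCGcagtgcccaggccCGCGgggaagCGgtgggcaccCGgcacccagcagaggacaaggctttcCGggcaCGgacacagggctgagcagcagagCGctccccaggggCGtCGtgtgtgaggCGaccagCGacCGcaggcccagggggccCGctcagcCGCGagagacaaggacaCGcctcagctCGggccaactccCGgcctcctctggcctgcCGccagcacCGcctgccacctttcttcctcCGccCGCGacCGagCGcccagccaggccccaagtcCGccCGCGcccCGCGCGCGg
Ccser1, chr6:61180075-61180374, plus strand: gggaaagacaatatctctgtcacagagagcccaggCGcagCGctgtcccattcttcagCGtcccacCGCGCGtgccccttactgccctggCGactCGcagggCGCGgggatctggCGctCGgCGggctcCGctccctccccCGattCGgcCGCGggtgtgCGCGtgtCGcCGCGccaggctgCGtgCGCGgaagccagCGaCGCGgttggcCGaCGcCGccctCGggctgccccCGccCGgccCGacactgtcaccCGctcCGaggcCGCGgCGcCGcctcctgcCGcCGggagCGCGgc
Foxd3, chr4:99656049-99656348, plus strand: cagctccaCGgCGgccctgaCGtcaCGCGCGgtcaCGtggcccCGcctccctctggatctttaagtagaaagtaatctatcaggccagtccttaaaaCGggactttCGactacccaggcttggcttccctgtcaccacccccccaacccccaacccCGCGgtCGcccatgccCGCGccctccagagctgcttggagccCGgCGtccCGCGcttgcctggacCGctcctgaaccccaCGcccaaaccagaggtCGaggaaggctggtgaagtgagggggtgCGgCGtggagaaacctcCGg
Col3a1, chr1:45311288-45311587, plus strand: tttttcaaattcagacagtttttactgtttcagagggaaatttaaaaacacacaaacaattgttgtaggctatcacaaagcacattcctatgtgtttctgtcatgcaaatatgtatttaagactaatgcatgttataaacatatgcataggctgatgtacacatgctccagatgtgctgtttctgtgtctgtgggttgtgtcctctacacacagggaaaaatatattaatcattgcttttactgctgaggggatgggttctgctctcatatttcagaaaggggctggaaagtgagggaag
Olfr1061, chr2:86414001-86414300, minus strand: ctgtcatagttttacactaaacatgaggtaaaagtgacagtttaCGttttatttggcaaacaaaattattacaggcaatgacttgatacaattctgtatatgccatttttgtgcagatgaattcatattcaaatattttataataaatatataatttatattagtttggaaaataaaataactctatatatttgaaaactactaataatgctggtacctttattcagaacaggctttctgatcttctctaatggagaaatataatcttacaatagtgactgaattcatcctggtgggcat
Prl6a1, chr13:27312377-27312676, plus strand: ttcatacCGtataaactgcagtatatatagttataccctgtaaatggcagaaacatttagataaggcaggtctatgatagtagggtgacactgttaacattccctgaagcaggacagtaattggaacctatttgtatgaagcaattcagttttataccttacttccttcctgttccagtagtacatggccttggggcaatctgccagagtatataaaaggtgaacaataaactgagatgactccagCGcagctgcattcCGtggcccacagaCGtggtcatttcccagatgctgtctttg
The promoters of Tusc1, Ccser1 and Foxd3 held 33, 46 and 25 CpGs in 300 bases, and those of Col3a1, Olfr1061 and Prl6a1 held 0, 1 and 4. The motif searched was CG, which reads the same on both strands. Over the 5307 autosomal RefSeq promoters inside stretches the median was 3 CpGs, and 28.3% had at least 10, against a median of 8 and 47.1% among those elsewhere, of 31396 in all.

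The 2016 stretches covered 867 Mb, or 35.2% of the 2463 Mb of autosomal sequence. Their median length was 312 kb (95% order-statistic interval 304 to 320 kb), against a median of 1188 bp for all autosomal gaps. Lengths had a long upper tail. There were 946 stretches of 200 to 300 kb, 589 of 300 to 500 kb, 355 of 500 to 1000 kb and 126 of at least 1 Mb, and this last class, 6.25% of the stretches, held 20.4% of their length. The longest was 2886 kb. The 3 members just inside the limit measured 200012, 200113 and 200147 bp, and the 3 gaps just outside measured 199914, 199931 and 199994 bp. The member of 200147 bp, chr5:98186997-98387143, held the start sites of Fgf5, a growth factor gene with a CpG-rich promoter, and of Cfap299.

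Stretches were poorer in genes than the rest of the autosomes. The rest is all sequence between the outermost sites of an autosome except the stretches, sites included, and a gene was placed by its start site in GENCODE M21. Protein-coding start sites numbered 3.99 per Mb in stretches and 11.3 per Mb in the rest, a ratio of 2.83. The difference was larger for genes with a CpG-rich promoter, with 1.28 against 5.48 start sites per Mb and a ratio of 4.27. A promoter counted as CpG-rich where the 500 bp on either side of the start site had at least 50% GC and an observed to expected CpG ratio of at least 0.6. Such promoters made up 32.1% of the 3463 protein-coding start sites in stretches (95% Wilson interval 30.6 to 33.7%) and 48.6% of the 17312 in the rest (47.8 to 49.3%). Wilson intervals here cover counting error only, and neighbouring genes are not independent. Genes of long non-coding RNAs followed the same direction, with 2.06 against 4.98 start sites per Mb. Pseudogenes numbered 4.94 per Mb in stretches and 4.74 in the rest. Without the 103 stretches of repeated sequence described below, the stretches had 3.78 per Mb. Repeated sequence was not taken out of the rest, so this last value cannot be compared with 4.74. Stretches made up 36.1% of the sequence between the outermost sites and held 16.7% of its protein-coding start sites and 37.1% of its pseudogenes.

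Shorter gaps did not lie evenly between these values. The 2943 gaps of 100 to 200 kb had 8.35 protein-coding start sites per Mb and the 4858 gaps of 50 to 100 kb had 12.0, close to the rest. CpG-rich promoters made up 56.4% and 57.8% of their start sites, above both the stretches and the rest. Within the stretches, gene density fell with length. From the shortest class to the longest, protein-coding start sites numbered 5.73, 3.91, 3.45 and 2.59 per Mb, and the share of CpG-rich promoters was 48.3%, 32.5%, 18.9% and 9.19%. GC content was 40.8%, 39.7%, 38.5% and 38.2% over the same classes, and soft-masked sequence was 34.9%, 36.7%, 40.9% and 43.7%.

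**Figure D1:**
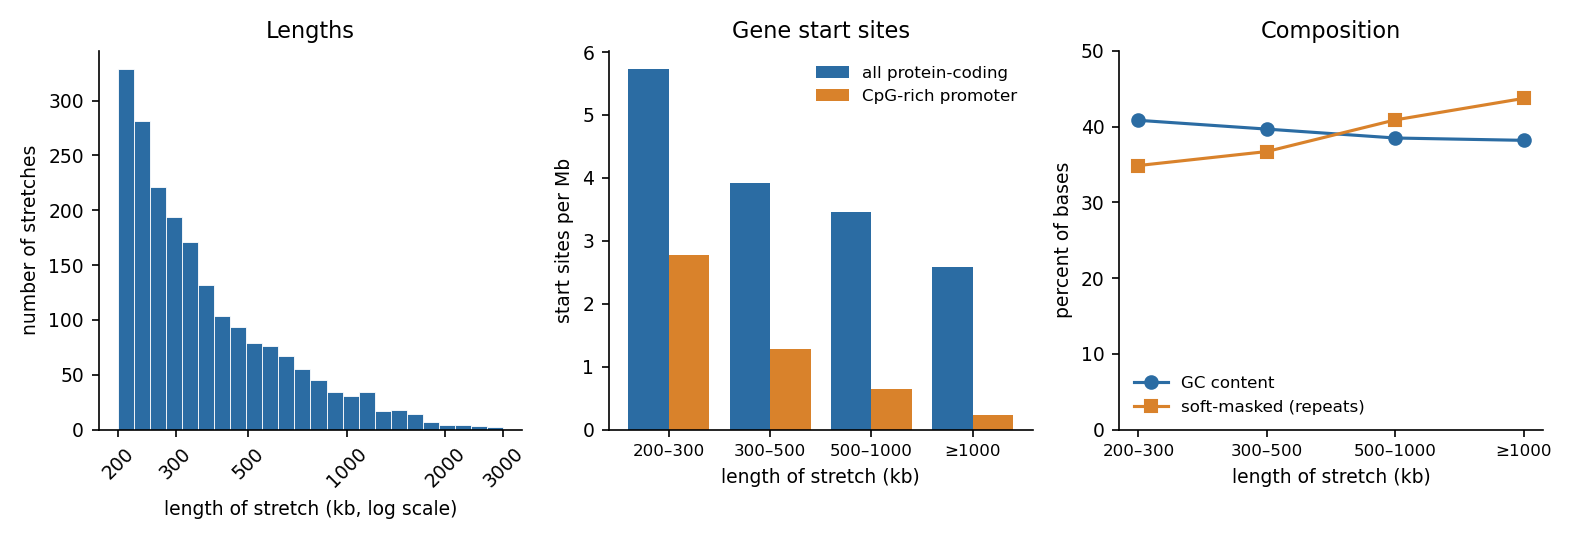
The left panel plots the number of stretches by length in kb on a log axis, and the middle and right panels plot protein-coding start sites per Mb and the percent of GC and of soft-masked bases in 4 length classes. Start sites with a CpG-rich promoter numbered 2.77 per Mb in the shortest class and 0.238 per Mb in the longest, while soft-masked sequence went from 34.9% to 43.7%.

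Genes were spread unevenly over the stretches. No protein-coding start site lay in 981 of them (48.7%), which covered 410 Mb, and 148 had no gene of any type. A single start site lay in 439, and 410 held 2 to 4. At the other end, 75 stretches (3.72%) held 10 or more, and these had 1220 of the 3463 genes, or 35.2%, in 54.4 Mb. These 75 clusters had 22.4 protein-coding start sites per Mb, of which 8.44% had a CpG-rich promoter, whereas the share was 45% in the 960 stretches with 1 to 9 genes. Across these classes, 193 stretches lay wholly within 1 protein-coding gene, with 151 such host genes in all, and 179 of the 193 held no protein-coding start site.

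Several of the longest stretches were gene deserts or the inside of very long genes. The longest, chr4:75148836-78034485, held 1 protein-coding start site, that of Dmac1, and overlapped Ptprd, the gene of a neuronal receptor tyrosine phosphatase. Ptprd measured 2271 kb, of which 92.2% lay in stretches, with 2 sites in its body. The stretch chr4:16012216-18672869, of 2661 kb, held Osgin2, Ripk2 and Mmp16, and in it Ripk2, the gene of a kinase of innate immune signalling, started 151 kb from the nearest edge. The stretch chr6:60845004-63141784 (2297 kb) held Mmrn1 and Ccser1, and chr10:53801193-55795859 (1995 kb) held Man1a, a mannosidase of the Golgi. No protein-coding gene started in chr7:52483950-54834560 (2351 kb, 37.8% GC), chr16:79177587-81149617 (1972 kb) or chr3:22660253-24546983 (1887 kb), the 3 longest of this kind. The last overlapped Naaladl2, whose whole length lay in stretches but for 1 site.

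The remaining 5 of the 10 longest had few unique windows, and 4 of them were gene clusters. The chr7:31282002-33984761 stretch (2703 kb) held 26 protein-coding start sites, all of secretoglobin genes of the Scgb1b and Scgb2b groups, which encode androgen-binding proteins of saliva and tears, together with 86 pseudogenes. Windows of 75 bases that occur only once in the assembled chromosomes made up 47.7% of this stretch. The chr7:20997372-23357303 stretch (2360 kb) had the most genes, 57 protein-coding start sites, of which 32 were vomeronasal type 1 receptors from Vmn1r119 to Vmn1r166, and its unique share was 9.76%. The chr2:174869004-177219775 stretch (2351 kb) held 32, zinc finger genes from Zfp968 to Zfp973 among them, with a unique share of 12.7%, and chr5:93392901-95889337 (2496 kb) held 27 with a unique share of 20.1%. Also repeated was chr12:21650792-24258845 (2608 kb), which held only Gm10330 and 9030624G23Rik and had a unique share of 24.8%. In contrast, the stretch with the third most genes, chr2:86328619-87021721 (693 kb), with 30 olfactory receptors from Olfr1054 to Olfr1102 among 31 genes, had a unique share of 91.5%.

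Many stretches followed each other with hardly any site between them. Of 1997 neighbouring pairs of stretches on the same chromosome, 507 (25.4%) were parted by 1 site and 982 (49.2%) by at most 5. Stretches joined in this way formed 359 chains that held 1341 stretches, or 66.5%. The longest chain, chr16:58797683-75757773, spanned 17.0 Mb with 27 stretches, 60 sites that covered 24613 bp, and 49 protein-coding start sites. These included a run of olfactory receptors from Olfr173 to Olfr209, and Epha3, Epha6, Robo1 and Robo2, receptor genes of axon guidance. On chromosome 3, chr3:42228302-50906433 spanned 8.68 Mb with 18 sites and only 4 protein-coding start sites, those of Pcdh10, Pabpc4l, Pcdh18 and Slc7a11. On chromosome 5, chr5:54441558-62827467 spanned 8.39 Mb with 24 sites and the start sites of Pcdh7, G6pd2, Arap2 and Dthd1.

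Sites at the borders of stretches were narrow. The 3525 sites beside a stretch had a median width of 317 bp (305 to 329), against 460 bp (457 to 463) for all 144903 autosomal sites. Sites of exactly 200 bp made up 27.7% of them (26.3 to 29.2%) against 12.4% of all sites (12.3 to 12.6%), and sites over 1 kb made up 6.01% against 23.9%. The 507 lone sites between 2 stretches had a median of 276 bp (234 to 314). Like the chromosome 7 site printed above, lone sites were more often repeat sequence. At least 90% of bases were soft-masked in 69 lone sites, or 13.6% (10.9 to 16.9%), against 2.06% of all sites (1.99 to 2.14%). The share was 19.7% among the 173 lone sites of 200 bp and 5.02% among all sites of that width. Of the lone sites, 21 lay within 1 kb of a protein-coding start site, or 4.14% (2.72 to 6.25%), close to the 4.20% of all sites. Of the 173 of 200 bp there were 0, which allows a share of up to 2.17% by the Wilson interval and so does not part them from the 1.62% of all sites of that width. Width and sequence were not used to choose the stretches, but they come from the same list.

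**Figure D2:**
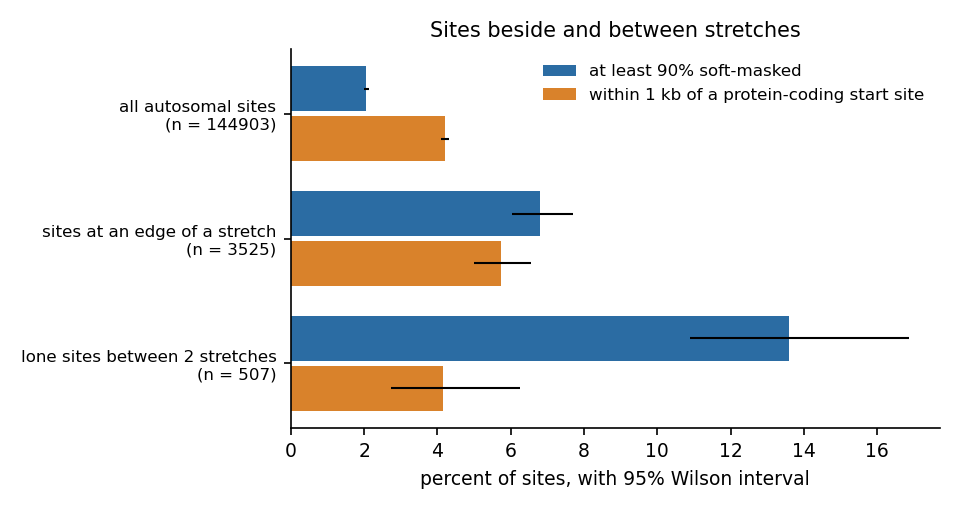
Bars give the percent of sites with at least 90% soft-masked bases and the percent within 1 kb of a protein-coding start site, for all autosomal sites, sites at an edge of a stretch and lone sites between 2 stretches, and lines give the 95% Wilson interval. The soft-masked share was 2.06%, 6.81% and 13.6%, and the share near a start site was 4.20%, 5.73% and 4.14%.

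The chromosomes differed in the share that lay in stretches. It was lowest on chromosome 11, with 63 stretches and 18% of the chromosome, followed by chromosomes 19 (24.1%) and 9 (26.7%). It was highest on chromosome 3, with 174 stretches and 50.7%, followed by chromosomes 10 and 16, both at 43.7%. The median over the 19 autosomes was 34.6%, with an SD of 7.24 percentage points. Chromosomes with more GC had a smaller share in stretches, with a Pearson r of -0.824 and a Spearman rho of -0.754 over 19 autosomes. This correlation is a description, since the stretches are part of the sequence whose GC was measured.

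The stretches were poor in GC on every autosome. They had 39.3% GC in all, against 43.4% in the rest, 42.9% in gaps of 50 to 100 kb and 41.9% in gaps of 100 to 200 kb. Per chromosome the difference from the rest was -3.88 percentage points on average (SD 0.642, n = 19 autosomes), from -4.73 to -2.68, and the stretches were lower on 19 of 19. Protein-coding start sites per Mb were also lower on 19 of 19, at 4.30 ± 1.96 (SD) in stretches and 11.2 ± 2.56 in the rest. Soft-masked sequence was higher in the stretches on 19 of 19, at 38.8% against 30.5% over all autosomes, and the observed to expected CpG ratio was 0.168 against 0.205. Among single stretches GC ranged from 34.7% to 55.2% with a median of 39.2%, and 1750 (86.8%) lay below the value of the rest.

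**Figure D3:**
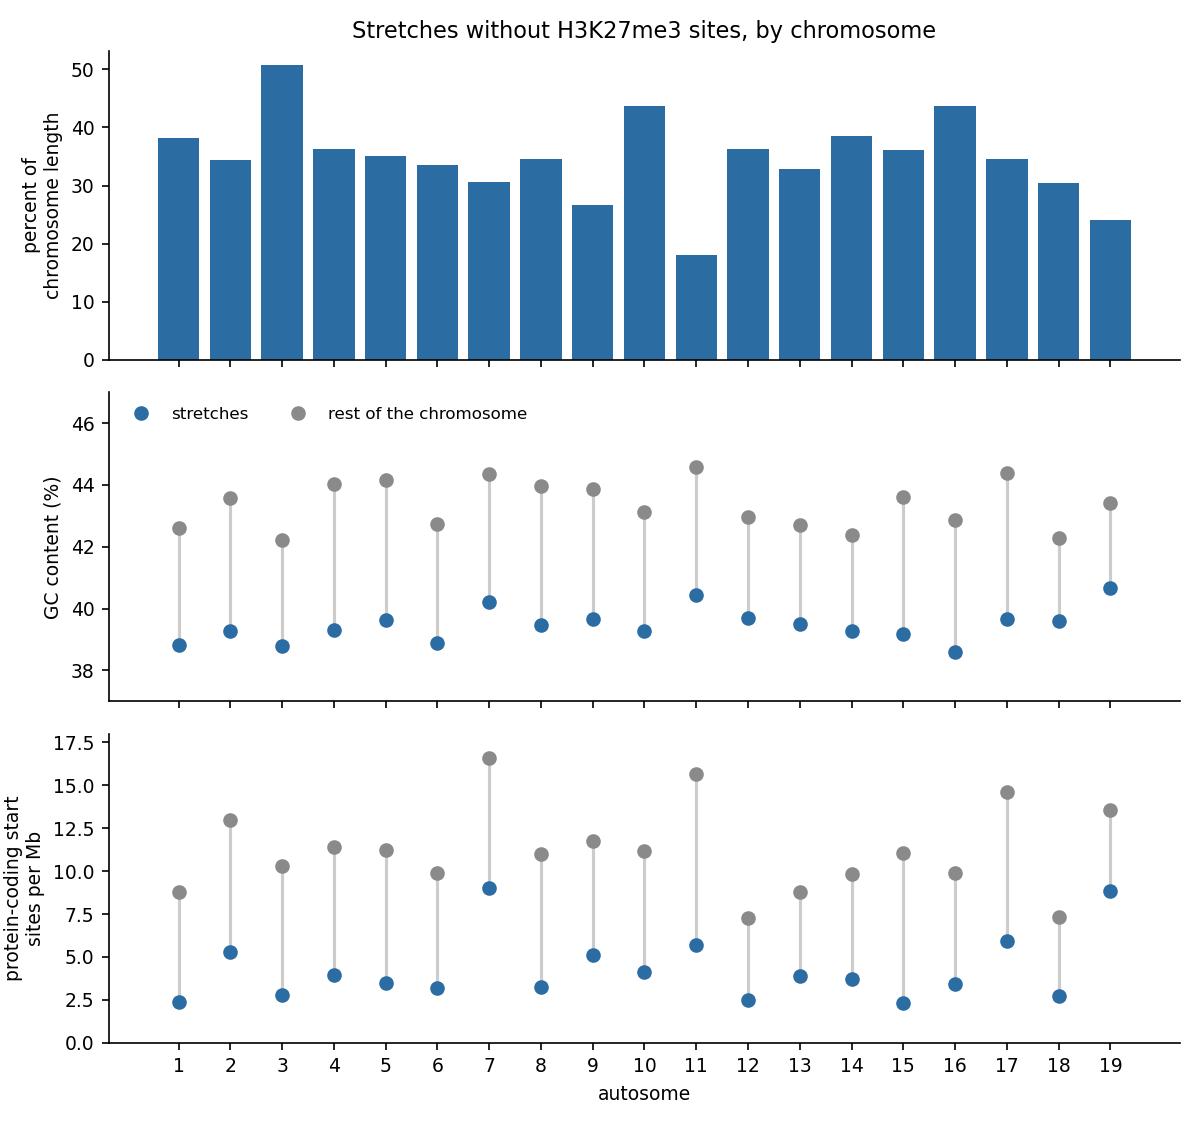
For each of the 19 autosomes the top panel plots the percent of its length in stretches, the middle panel the GC content in percent and the bottom panel protein-coding start sites per Mb, in stretches (blue) and in the rest of the chromosome (grey). The GC axis starts at 37%, and the blue point lies below the grey one for both measures on 19 of 19 autosomes.

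A small group of stretches did not share the low GC. There were 153 with over 45% GC. The highest, chr10:79972536-80178821 (206 kb, 55.2% GC), held 13 protein-coding genes, among them Polr2e, a subunit of RNA polymerase II, Gpx4, an enzyme that reduces lipid peroxides, Stk11, a kinase that activates AMPK, and Cirbp, a cold-induced RNA-binding protein. Another, chr8:120229974-120447184 (53.9%), lay within Gse1. Both were named after their values were seen.

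Unknown bases were concentrated in a few stretches. They made up 0.650% of the stretches and 0.107% of the rest, and the 5.64 Mb in stretches were 77.5% of all unknown bases of the span. In 1947 stretches there was no unknown base. The 39 stretches with over 10% held 88.1% of the unknown bases and 21702 kb in all. The share was highest in chr8:55116683-55394651, at 79.9%, followed by chr10:57844306-58394309, at 62.4%, with Duxf3, Gcc2 and Lims1, and chr11:34439870-34689416, at 54.7%, within Dock2. The unknown share was higher in stretches on 17 of 19 autosomes, and not on chromosomes 6 and 16.

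Repeated sequence was measured as the share of 75-base windows, sampled every 500 bp, with 1 copy in the assembled chromosomes on either strand. It was 89.0% in stretches and 94.6% in the rest, lower in stretches on 19 of 19 autosomes, and lowest on chromosome 7, at 72.3%. Most stretches were not repeated in this sense. In 1497 of 2016 (74.3%) at least 90% of windows were unique, and 103 had under 80%. These 103 covered 65.5 Mb, or 7.56% of the length, but held 716 protein-coding start sites, or 20.7%, and their pseudogenes numbered 19.2 per Mb. The 3 lowest, chr14:3333812-3948505, chr14:5071539-5879207 and chr14:7029040-7243546, had unique shares of 3.01%, 5.14% and 7.01% and held 11, 16 and 5 protein-coding start sites.

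A second group had unique sequence in the chromosomes but a further copy in the patches, the corrected or alternative sequences released with GRCm38.p6. When copies in the 74 patches and 44 scaffolds outside the chromosomes were added, the unique share dropped by over 50 percentage points in 36 stretches, from 94.8% to 12.8% in all. Windows that gained a copy in this way amounted to 16.7 Mb of autosomal sequence, of which 15.1 Mb, or 90.2%, lay in stretches. These 36 covered 16.7 Mb and differed from the others in content. They had 44.4% GC and 12.4 protein-coding start sites per Mb, and 108 of their 208 promoters (51.9%) were CpG-rich. Their genes included Foxd3, Foxp4, Egr2 and Hhex, which encode developmental transcription factors, Men1, a tumour suppressor gene, and Dgcr8, a subunit of the microRNA processor, all named after the values were seen. The Foxd3 stretch, chr4:99622597-100035790, went from 92.6% to 0.792% unique, and the Egr2 stretch, chr10:67220537-67684472, from 98.2% to 8.25%. The list itself held 105 sites on 23 sequences outside the 21 assembled chromosomes. These sequences were not divided into patches and scaffolds, so whether the study's alignment included patches is not known here. The methods say that unusable reads were filtered as ENCODE recommends, without stating the handling of reads with several placements, and the part of the copies in the absence of sites was not tested.

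**Figure D4:**
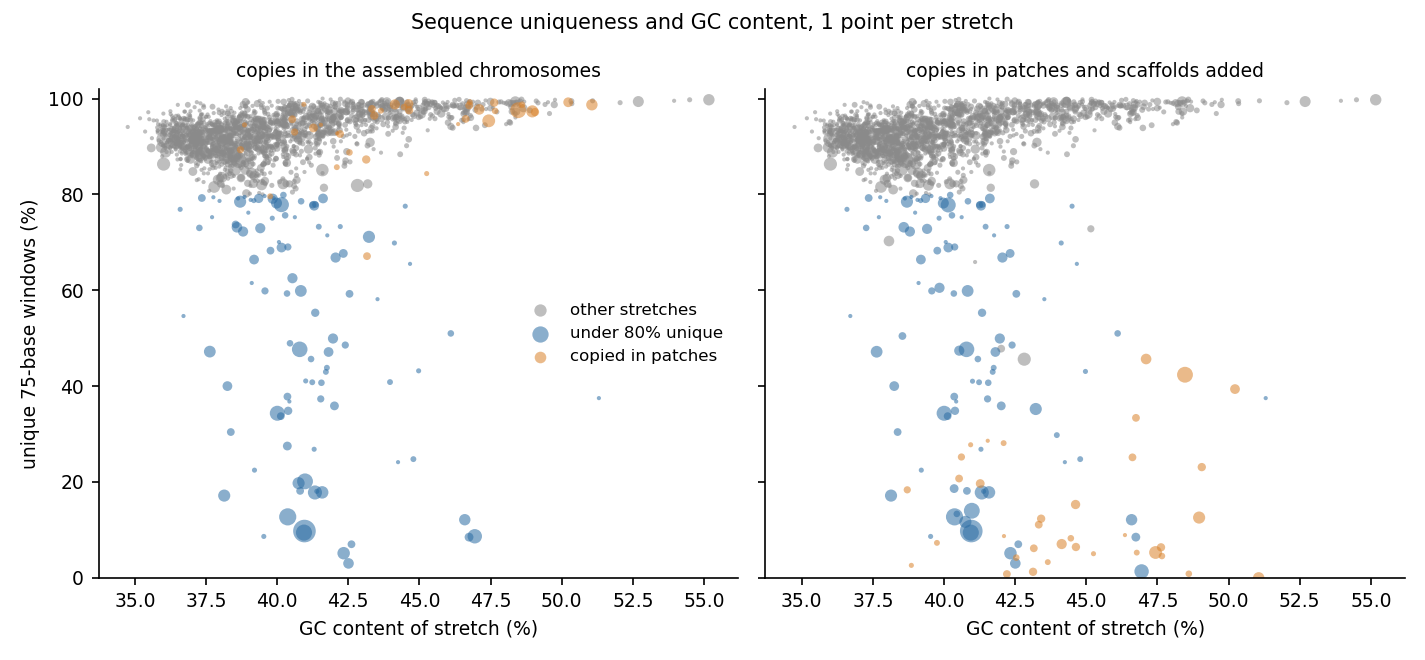
Each point is 1 stretch, with its GC content in percent and its percent of unique 75-base windows, counted in the assembled chromosomes (left) and with patches and scaffolds added (right), and the area of a point grows with its number of protein-coding start sites. The 36 stretches copied in patches (orange) fell from 94.8% to 12.8% unique windows in all, while 103 (blue) were under 80% in the chromosomes already, some of them drawn in orange.

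Without the stretches of either group and without those of over 10% unknown bases, 1870 stretches of 782 Mb were left. They had 39.1% GC, 3.24 protein-coding start sites per Mb and a median length of 308 kb, so GC content and gene density were no higher in them than in all 2016.

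Chemosensory receptor genes were the largest families inside stretches. Of all 20807 autosomal protein-coding genes, 16.6% (16.1 to 17.2%) started in a stretch, and each family below is read against this share. Of 1128 olfactory receptor genes, which encode the odorant receptors of the nose, 454 (40.2%, 37.4 to 43.1%) did, in 38 stretches, and only 17 of them in stretches with under 80% unique windows. Of 208 vomeronasal type 1 receptors 141 (67.8%) and of 121 type 2 receptors 97 (80.2%, 72.2 to 86.3%) lay in stretches, and 107 and 40 of these were in stretches of low uniqueness. The type 2 receptors were most numerous, with 15 from Vmn2r31 to Vmn2r37, in chr7:7385807-9346673, where the unique share was 17.2%. Bitter taste receptors (Tas2r) had 13 of 35 in stretches (37.1%), and 7 of them shared chr6:132463968-132793216. Of 20 Mrgpr genes, receptors of itch and pain neurons, 8 lay in stretches, and 4 of them shared chr7:47309700-47962018.

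Tissue-restricted secreted proteins formed the second large group. Of 29 genes of the prolactin family, hormones of the pituitary and the placenta, 26 (89.7%, 73.6 to 96.4%) lay in stretches, 16 of them in chr13:27206300-27871167, where 93.2% of windows were unique. Secretoglobins had 27 of 34 (79.4%), all but 1 in the chromosome 7 stretch described above. Major urinary proteins, pheromone carriers made in the liver, had 15 of 22 (68.2%), all in chr4:60081990-61826996, with a unique share of 19.7%. Defensins, antimicrobial peptides, had 30 of 66 (45.5%), with 19 in chr8:21099394-21811275, and Spink protease inhibitors had 8 of 13, with 6 in chr18:43756121-44332711. Of the Ceacam and Psg genes, the latter made in the placenta, 13 of 28 lay in stretches, with 7 in chr7:18231344-18680700. Serpins had 12 of 60 (11.8 to 31.8%), an interval that included the share of all genes, and 8 of the 12 were in chr13:32988231-33588498.

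Immune receptor and metabolic families were more mixed. The Klr genes, receptors of natural killer cells, had 16 of 26 (61.5%), with 9 in chr6:129932079-131377379. Skint genes, expressed in skin and thymus, had 9 of 11, and chr4:111904787-112355888 held 5 of them. The Sult sulfotransferases had 10 of 21, of which 8 Sult2a genes shared chr7:13403498-14620250. Cyp2 genes of cytochrome P450 had 15 of 57 (26.3%, 16.6 to 39.0%), with 4 Cyp2j genes in chr4:95969126-96368235. Speer genes had 8 of 10, with at most 3 in a stretch (chr5:14897393-15927169), and the Pramel and Pramef genes 8 of 11, with at most 3 (chr4:143134521-143945860). Of the Gbp genes, 4 of 10 lay in stretches, and the Clec, Ugt and interferon genes had 4 of 30, 3 of 22 and 1 of 26. Of 70 Trim genes 11 lay in stretches (15.7%), near the share of all genes.

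Families of nervous and structural genes lay near or below the background. Cadherins had 7 of 28 (25%, 12.7 to 43.4%), namely Cdh2, Cdh7, Cdh10, Cdh11, Cdh12, Cdh18 and Cdh19, each in a stretch of its own. Protocadherins had 4 of 67, and these were Pcdh7, Pcdh10, Pcdh18 and Pcdh20, which lie outside the clustered arrays. The contactin list, which also takes in contactin-associated genes, had 3 of 13, the GABA receptors 2 of 16, the glutamate receptors 1 of 22, the potassium channels 6 of 92 and the keratin-associated proteins 4 of 57. Zinc finger genes with Zfp symbols had 43 of 388 (11.1%, 8.33 to 14.6%), of which 18 were in stretches of low uniqueness. Zinc finger genes with other symbols were not counted, so this share does not hold for zinc finger genes as a whole. The stretch with most Zfp genes, chr2:174869004-177219775, held 6 of them among 32 protein-coding start sites. The list made for caseins had 2 of 15, Csnk1g1 and Csnka2ip, neither of them a casein gene.

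**Figure D5:**
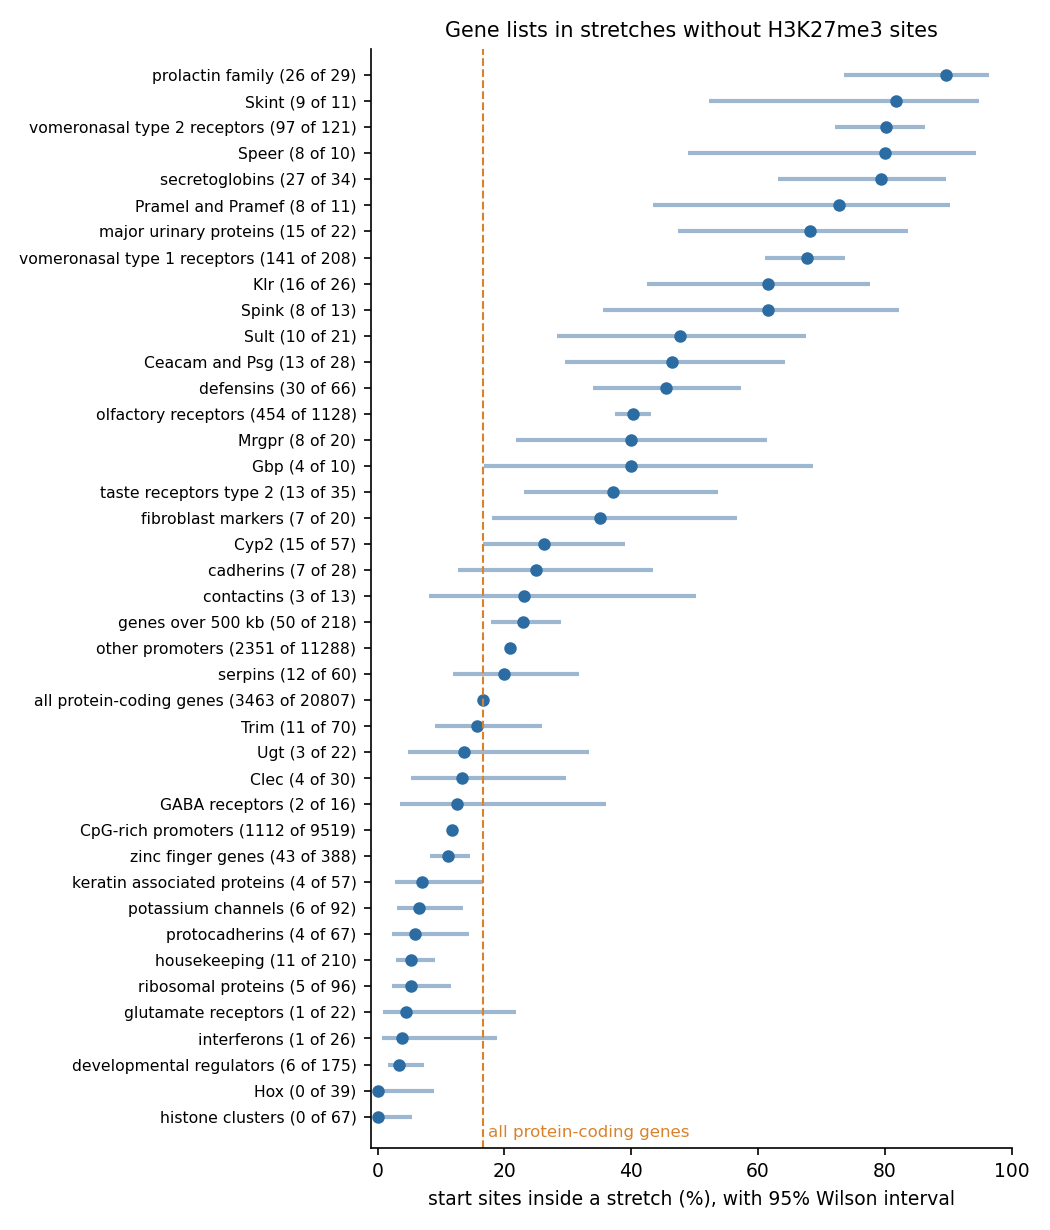
Points give the percent of the autosomal protein-coding genes of each list whose start site lay in a stretch, with the 95% Wilson interval as a line and the counts in the labels, for lists of at least 10 genes. The dashed line marks the 16.6% of all protein-coding genes, and the lists range from 0 of 67 histone cluster genes to 26 of 29 genes of the prolactin family.

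Genes of broad or developmental function were rare in stretches. No Hox gene of 39 and no histone cluster gene of 67 lay in one, which allows shares of up to 8.97% and 5.42% by the Wilson interval. Of 175 developmental regulators, genes of the Wnt ligands and of the Fox, Gata, Hox, Lhx, Nkx, Pax, Sox and Tbx transcription factors, 6 did (3.43%, 1.58 to 7.28%). Foxd3 and Foxp4 were in the stretches copied in patches. Of the other 4, Foxp2 started 3.15 kb, Lhx9 9.87 kb, Sox11 18.2 kb and Foxn2 78.0 kb from the nearest edge. Of 210 housekeeping genes of the ribosome, proteasome, translation initiation and RNA polymerase II, 11 lay in stretches (5.24%, 2.95 to 9.13%), namely Eif3e, Eif3j2, Polr2e, Psmc3, Psmc5, Psme2b, Rpl10l, Rpl27a, Rpl9-ps1, Rps27a and Rps6kb2, the last of which is a kinase gene caught by its symbol. Of these, Eif3e, a subunit of a translation initiation factor, lay deepest, at 464 kb from the nearest site, while Rpl10l started 0.293 kb from its edge. Psmc3 and Rps6kb2 were in stretches copied in patches, and Psme2b was in a stretch with 71.2% unique windows.

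Of the 20 genes fixed as fibroblast markers, 7 lay in stretches (35.0%, 18.1 to 56.7%), against 16.6% of all protein-coding genes. The others, Acta2, Col1a1, Col6a1, Fn1, Lum, Pdgfra, Pdgfrb, Prrx1, S100a4, Tagln, Thy1, Twist1 and Twist2, did not. The list holds positions only, so the labelled cell type could not be checked by expression. The 7 were the collagen genes Col1a2, Col3a1 and Col5a1, Dcn, the gene of the matrix proteoglycan decorin, Postn, the gene of the matrix protein periostin, Fap, a membrane protease of activated fibroblasts, and Vim, the gene of the filament protein vimentin. Col3a1 started 291 kb from the nearest edge in a stretch of 651 kb, Fap 114 kb in one of 280 kb, Col1a2 91.8 kb in one of 205 kb and Dcn 78.2 kb in one of 314 kb. Col5a1 lay 63.1 kb, Postn 7.88 kb and Vim 6.09 kb from an edge. All 7 stretches had at least 90% unique windows. Of the markers of other cell types, none of 6 epithelial and none of 4 endothelial genes lay in a stretch, and 1 of 5 blood genes (Ptprc) and 1 of 5 neuronal genes (Map2) did. Upper Wilson limits were 39.0%, 49.0%, 62.4% and 62.4%, each above the 35.0% of the fibroblast list. These small lists therefore do not part the cell types.

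CpG-rich promoters inside stretches lay nearer to the edges than other promoters. The median distance from the start site to the nearest edge was 62.1 kb (57.6 to 66.0) for the 1112 CpG-rich promoters and 97.7 kb (92.9 to 103 kb) for the 2351 others, and 314 and 1155 of them lay over 100 kb away. CpG-rich promoters were also more frequent in shorter stretches, as given above. The CpG-rich promoters were spread over 604 stretches. Some were far from any site, and those named here were taken from the farthest after their values were seen, leaving out genes with Gm symbols. Emc2, a subunit of the membrane protein insertion complex of the endoplasmic reticulum, started 658 kb from the nearest edge, Tusc1 567 kb, Impad1, a phosphatase of the Golgi, 498 kb, Plod2, a collagen lysyl hydroxylase, 496 kb, Ptprk, a receptor phosphatase, 489 kb, and Acvr2a, a receptor of activin, 399 kb. Emc2 shared its stretch of 1610 kb on chromosome 15 with Eif3e and with Rspo2, the gene of a secreted activator of Wnt signalling, whose CpG-rich promoter lay 352 kb from the edge.

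Very long genes took part of the stretches into their bodies. Of 218 protein-coding genes over 500 kb, 150 overlapped a stretch, 108 had over 50% of their length in stretches and 10 lay in them whole. Of all 20807 autosomal protein-coding genes, 4025 overlapped a stretch and 3023 lay in stretches whole, but overlap depends on gene length. By start site, 50 of the 218 lay in stretches (22.9%, 17.9 to 29.0%), against 16.6% of all. In all, 45.8% of the length of the genes over 500 kb lay in stretches, against 27.6% for all protein-coding gene bodies. The spread among them was wide. Ptprd had 92.2% in stretches, Macrod2 78.5%, Csmd1 75.3%, Lrp1b 73.8%, Cntnap2 69.8% and Dlg2 51.6%, with between 2 and 55 sites each. Lsamp, a neural adhesion gene of 2197 kb, had only 9.46% in stretches and 95 sites, and Fhit 3.66% and 32 sites. The annotated bodies of Gm20388 (4435 kb, 4.90%) and Fgfr2 (2961 kb, 13.6%) complete the 10 longest genes that overlapped a stretch, and they held 318 and 474 sites.

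A single stretch stood out in microRNA genes. The 527 microRNA genes inside lay in 304 stretches, and 119 of them lay in chr2:10372613-10631055, a stretch of 258 kb that overlapped Sfmbt2, a Polycomb group gene whose intron holds a large microRNA cluster. Without it, microRNA genes numbered 0.471 per Mb of stretch, against 0.608 with it and 0.985 in the rest. The second, chr12:109373931-109706433, held 22 and lay in the imprinted Dlk1 and Meg3 region, and its unique share went from 99.2% to 5.26% with patches. The third, chr7:60702474-61962477, held 16, of which 10 carried Mir344 symbols. These 3 were named after their values were seen. RefSeq gave 20 mature entries for the third, with 13 distinct sequences and 7 seeds, and the 9 sequences that share a seed with another distinct sequence are printed, with the seed, bases 2 to 8, in capitals. They were chosen by their seeds, and the other 4 seeds had 1 distinct sequence each.
mmu-miR-344-5p: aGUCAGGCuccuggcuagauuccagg
mmu-miR-344b-5p: aGUCAGGCuccuggcuaaaguuc
mmu-miR-344c-5p: aGUCAGGCugcuggcuagaguac
mmu-miR-344d-1-5p: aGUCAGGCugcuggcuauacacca
mmu-miR-344d-3-5p: aGUCAGGCuagugguuauacucc
mmu-miR-344d-3p: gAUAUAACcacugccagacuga
mmu-miR-344e-3p: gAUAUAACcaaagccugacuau
mmu-miR-344-3p: uGAUCUAGccaaagccugacugu
mmu-miR-344c-3p: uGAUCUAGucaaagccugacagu
The first seed was shared by 6 entries, the second by 4 and the third by 3.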

How the data were processed

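H3K27me3 ChIP-seq was done on 12 libraries and 2 inputs. According to the study's methods and the submitters' processing notes, the authors used Trim Galore for trimming, BWA for alignment to mm10, SAMtools for filtering of unusable reads after ENCODE, code adapted from nf-core and MACS2 for broad peaks, and merged replicates. Versions, thresholds, the exact treatment of reads with several placements and the rule for combining peaks are not given in the sources used here. The deposited table gives a chromosome, start and end per site (other data, positions and not a score) and no values per library, so the planned test of treated against control cells was not run. The study's methods planned a minimum number of raw reads per ChIP sample and normalised samples to the lowest coverage, but the depth reached is unknown. Columns not mapped to a sample numbered 0. Starts were taken as 0-based and ends as exclusive, and positions are printed 1-based.

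Gaps of at least 200000 bp were compared with the GRCm38.p6 sequence and GENCODE M21, an earlier release than the study's, in Python 3.11.15 with numpy 2.4.6, pandas 2.3.3, scipy 1.17.1 and numba 0.67.0. Windows of 75 bases were sampled every 500 bp and their exact copies counted on both strands. Alternate sequences of other strains were not used, and 1 kb around a site's ends was searched for start sites. The lone sites printed are from the first 3 of 200 bp by joint length of their pair, leaving out chromosome 18, and 1 of the 3 is not reported here. The functions were tested on simulated data. Gene lists were defined by symbol patterns. The text names the 10 longest stretches, the 3 with most genes, the 3 longest without a protein-coding start site, the 3 lowest in unique windows, the 3 highest in unknown bases, the 3 on either side of the limit, for each list with at least 5 members inside the stretch that held most, the 10 longest overlapping genes, and the marker, developmental and housekeeping genes inside. The members and lists were chosen with earlier results of these data known, and other named items are said to have been chosen after their values were seen. Alternatives were other gap limits, wider sites only, other rules for genes, windows and unknown bases, the X, and chromosome ends.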

Additional observations from a re-analysis of the deposited data

Results flagged for a closer look

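The X and Y chromosomes and the sequences outside the assembled chromosomes were not part of the stretches described, and their values are given because the list holds sites there too. On the X there were 142 gaps of at least 200 kb. They covered 75.9 Mb, or 44.4% of the chromosome, with a median of 364 kb and a longest gap of 4280 kb. They held 231 protein-coding start sites (3.04 per Mb), and had 38.2% GC, 55.5% soft-masked bases, 4.35% unknown bases and 70.6% unique 75-base windows. On the Y there were 6 such gaps among 10 sites, with 89.6 Mb in all. A further 105 sites were listed on 23 sequences outside the 21 assembled chromosomes.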

How the results depend on the processing

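Of 68 recomputed values, 51 moved by less than the limits used, which were 1.5 times for counts and lengths, the interval for the median, and 1 SD over the 19 autosomes for shares and densities. These limits were wide, with 1.96 protein-coding start sites per Mb for density. Against 3.99 per Mb, values of 5.39 with gaps of at least 100 kb and 5.56 with sites of at least 500 bp stayed within it. With gaps of at least 100 kb there were 4959, with a median of 172.5 kb and 40.2% GC. With gaps of at least 500 kb there were 481, of 417 Mb in all, with a median of 728 kb and 38.4% GC. With sites of at least 500 bp only, the total was 1541 Mb, the median 378 kb and GC 40.4%. With sites of at least 1 kb only, the total was 1795 Mb, the median 447 kb, the density 6.14 protein-coding start sites per Mb and GC 40.7%. The last 2 settings remove sites, which lengthens and joins gaps. Unknown bases made up 0.0791% without stretches of over 10% unknown bases, 0.0276% without these and those of low uniqueness or with patch copies, an alternative chosen after seeing the data, and 6.87% with chromosome ends added. GC content of stretches stayed below 43.4% in each of these settings, but that value is the rest of the main setting. The whole span between the outermost sites, with 41.9% GC, is below it too. The rest belonging to each other setting was not measured, so no conclusion is drawn from this. No paired analysis was possible because no value per library was listed, and the test of treated against control cells and its alternatives were not run. The list does not give depth, so a stretch with a weak broad signal cannot be told apart from one with none.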
